A study of Mus musculus with 13 samples.

Results

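Voltage-gated sodium and calcium channel subunits and potassium channel subunits were followed across 3 kinds of transgenic mouse neuroblastoma and normal adrenal gland. Members were chosen by gene symbol alone, as every measured gene named Kcn with a letter and a number, Scn with a number and a or b, or Cacn as an alpha-1, alpha-2-delta, beta or gamma subunit. This gave 115 of the 18194 genes with a single-symbol probe set, of which 80 are potassium, 11 sodium and 24 calcium channel genes. A further 17 of the 132 genes of the same names in the RefSeq table were not analysed here. The symbol rule keeps auxiliary subunits beside pore-forming ones, and it keeps gamma subunits such as Cacng4 and Cacng5 that also serve AMPA-type glutamate receptors.

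The tumours came from mice on a C57BL/6 background with transgenes expressed in the neural crest, and each animal was watched until its tumour could be felt and was then sacrificed. There were 3 arrays of tumours driven by mutated ALK (labelled mutALK), 4 of tumours driven by MYCN, 3 of tumours driven by MYCN and mutated ALK together (called double tumours here) and 3 of normal C57BL/6 adrenal gland, which carried no transgene by its label. No age, no transgene promoter and no ALK mutation is given in the labels. The values are log2 expression levels from Affymetrix arrays, so a difference of 1 is a change of 2-fold, and the level of 1 probe set cannot be set against that of another. Whether each array came from an animal of its own is not given by the labels, and some tumours share the leading number of their title (mutALK 2 and 3, and MYCN 2 and 3), so p-values rest on the spread among arrays, part of which may be technical.

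Ion channels of these families set the electrical behaviour of a cell. Voltage-gated sodium channels carry the upstroke of the action potential, voltage-gated calcium channels couple it to transmitter and hormone release and to gene expression, and potassium channels bring the membrane back to rest and hold it there. Chromaffin cells of the adrenal medulla and sympathetic neurons belong to the lineage in which neuroblastoma arises, are excitable and use all of these. Cells of the adrenal cortex rest on background potassium channels and use T-type and L-type calcium channels to release aldosterone and corticosterone.

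The arrays were alike in overall level, with medians over all genes between 6.94 and 7.24, and arrays of a group correlated at 0.938 to 0.991 over all genes. Adrenal array 2 stood apart from the other adrenal arrays. The mean level of 12 pan-neuronal marker genes was 9.78 in it against 6.58 and 5.81, and 30 of the 115 channel genes were more than 1 log2 unit above both other adrenal arrays in it, against 4 that were as far below both. Liver transcripts were high in 5 arrays (mutALK 1 and 3, MYCN 2, adrenal 2 and double 1, with hepatocyte marker means from 8.88 to 11.92), and skeletal muscle transcripts in MYCN 3 (8.18) and double 1 (6.98). Red cell markers averaged 8.24 in mutALK 2 and 4.63 to 6.55 in the other arrays. In adrenal 2 the kidney tubule markers averaged 5.77, against 4.42 and 4.49 in adrenal 1 and 3. The pancreas markers averaged 7.27 in it, against 6.07 and 6.29. Without the 5 liver arrays mutALK 2 is the only mutALK array. A mutALK call lost in that setting can therefore not be read as an effect of liver transcripts. The adrenal cortex markers averaged 12.04 to 13.28 in the adrenal arrays and 5.45 to 7.25 in the tumours, and the chromaffin and sympathetic markers 9.23 to 10.46 in the adrenal arrays and 9.80 to 11.69 in the tumours. The probe set of mouse Alk averaged 8.79 ± 0.33, 9.45 ± 0.34 and 9.11 ± 0.37 (SD) in mutALK, MYCN and double tumours, and that of mouse Mycn 12.03 ± 0.33, 6.35 ± 0.86 and 10.19 ± 0.64, against 5.17 ± 0.29 and 7.69 ± 0.92 in adrenal gland. The labels do not give the species of the transgenes, so these mouse probe sets check no label. By sex read from Xist, adrenal 1, 2 and 3, mutALK 1 and 2, MYCN 4 and double 1 were female. The arrays mutALK 3, MYCN 1, 2 and 3 and double 2 and 3 were male, so sex was not balanced between the groups. In bulk tissue, fewer cells of a type and less RNA per cell cannot be told apart.

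Against the adrenal gland, more sodium and calcium channel genes were called higher than lower in each kind of tumour, and potassium channel genes went both ways. In mutALK tumours 32 of 115 channel genes (27.8%) were higher and 16 (13.9%) lower at an adjusted p under 0.05, where 21.3% of all genes were called higher and 21% lower. MYCN tumours had 26 higher (22.6%) and 18 lower (15.7%), against 25.3% and 24.8% of all genes. Double tumours had 30 higher (26.1%) and 16 lower (13.9%), against 24.3% and 24.2%. The count of higher genes in mutALK tumours was 21 without adrenal 1 and 40 without adrenal 2. The 3 comparisons share the adrenal arrays.

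By class, the sodium channel genes had 6, 3 and 5 of 11 higher in mutALK, MYCN and double tumours (54.5%, 27.3% and 45.5%) and 1, 1 and 0 lower. Calcium channel genes had 11, 11 and 12 of 24 higher (45.8%, 45.8% and 50%) and 3, 2 and 2 lower. Potassium channel genes had 15, 12 and 13 of 80 higher and 12, 15 and 14 lower (18.8%, 15% and 16.2% higher). All genes gave 21.3%, 25.3% and 24.3% higher and 21%, 24.8% and 24.2% lower. The sodium share of MYCN tumours was thus near that of all genes. The median difference was 1.67, 0.11 and 0.26 over the sodium genes and 0.53, 0.28 and 0.85 over the calcium genes, against 0.0, -0.02 and -0.03 over all genes. Without adrenal 2 the sodium count of MYCN tumours was 5 of 11, and the potassium counts of higher genes in mutALK and double tumours were 22 and 21 of 80. Those potassium shares moved from below the share of all genes to above it. They were 27.5% against 21.2% in mutALK and 26.2% against 24.3% in double tumours. Without the liver arrays the double share was 27.5% against 22.9%, and none is given for mutALK, where mutALK 2 was the only array left. Without both adrenal 2 and double 1 the double share was 20% against 23.1%, below the share of all genes again.

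**Figure D1:**
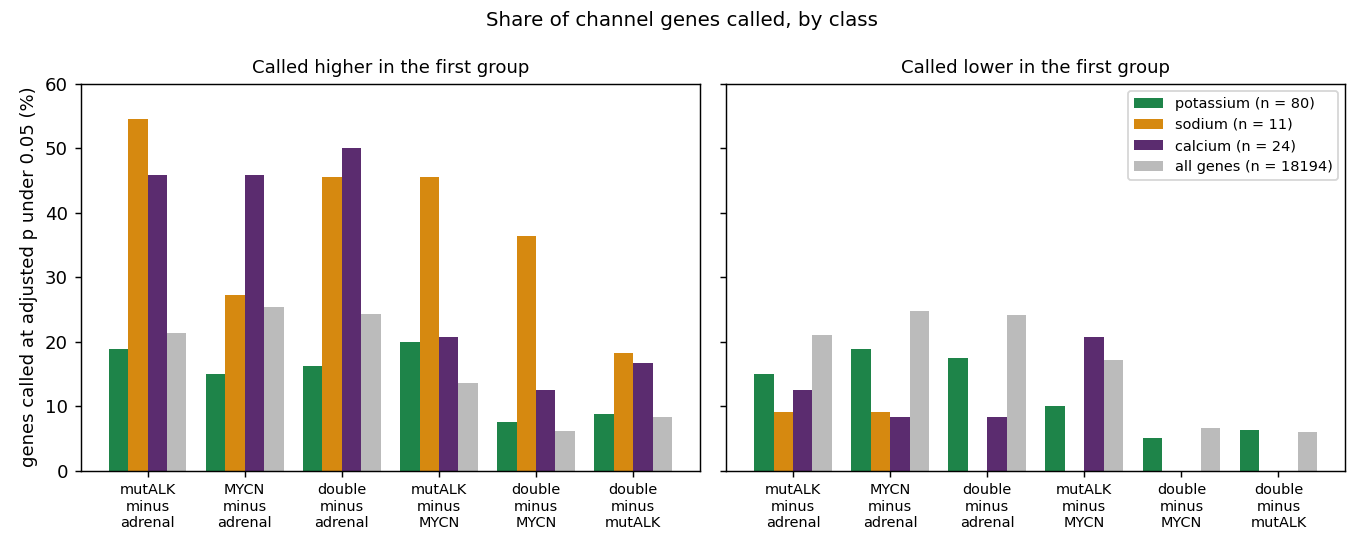
Share of genes called at an adjusted p under 0.05 (y axis, percent) in each of the 6 comparisons (x axis), called higher on the left and lower on the right, for potassium, sodium and calcium channel genes and all genes. The sodium and calcium bars stand highest on the left, 54.5% and 45.8% against 21.3% of all genes for mutALK minus adrenal, and the 3 sodium bars of the comparisons between tumours are at 0 on the right.

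Several neuronal sodium channel genes were higher in the tumours, Scn2b was lower in mutALK tumours and Scn7a was lower in MYCN tumours. Of the pore-forming alpha subunits, Scn2a and Scn3a of central and embryonic neurons, Scn8a of the axon initial segment and Scn9a of sensory and sympathetic neurons are the ones that the results turn on. On the list of neuronal sodium channel subunits 10 of 11 genes were measured, of which 6, 3 and 5 were higher and 1, 0 and 0 lower in mutALK, MYCN and double tumours. The shares called higher were 60%, 30% and 50%, against 21.3%, 25.3% and 24.3% of all genes, so that of MYCN tumours was near the share of all genes. Scn7a is not on this list, which was chosen with earlier results of these data known. Scn3a, Scn2a, Scn1a, Scn9a and Scn7a are neighbours on mouse chromosome 2, with 3 other genes, Csrnp3, Galnt3 and Ttc21b, between Scn2a and Scn1a in the RefSeq order. The 250 bases before the RefSeq start of 3 of these neighbours, and of the calcium channel gene Cacng5 described after them, are shown as examples. Scn2a, Scn7a and Cacng5 were called between tumours, and Scn9a lies beside Scn7a. Scn3a and Scn1a were also called between tumours and are not shown. CG steps are in capitals (build GRCm38.p6; Scn2a on the plus strand at chr2:65620519-65620768, Scn9a on the minus strand at chr2:66634963-66635212, Scn7a on the minus strand at chr2:66784911-66785160, Cacng5 on the minus strand at chr11:107915056-107915305).
Scn2a: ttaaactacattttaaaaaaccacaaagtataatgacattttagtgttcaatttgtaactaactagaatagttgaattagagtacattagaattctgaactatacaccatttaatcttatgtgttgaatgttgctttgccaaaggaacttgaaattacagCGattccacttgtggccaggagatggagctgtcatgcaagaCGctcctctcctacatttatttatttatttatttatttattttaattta
Scn9a: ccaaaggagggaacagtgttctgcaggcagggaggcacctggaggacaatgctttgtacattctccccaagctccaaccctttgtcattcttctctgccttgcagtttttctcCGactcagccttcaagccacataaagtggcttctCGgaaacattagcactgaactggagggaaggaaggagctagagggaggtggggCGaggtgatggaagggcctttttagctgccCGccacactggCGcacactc
Scn7a: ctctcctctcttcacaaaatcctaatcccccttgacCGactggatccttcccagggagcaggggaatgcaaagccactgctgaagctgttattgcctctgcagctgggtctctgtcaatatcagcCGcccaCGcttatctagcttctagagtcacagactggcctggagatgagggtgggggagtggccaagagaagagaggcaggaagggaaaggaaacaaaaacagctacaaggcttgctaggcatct
Cacng5: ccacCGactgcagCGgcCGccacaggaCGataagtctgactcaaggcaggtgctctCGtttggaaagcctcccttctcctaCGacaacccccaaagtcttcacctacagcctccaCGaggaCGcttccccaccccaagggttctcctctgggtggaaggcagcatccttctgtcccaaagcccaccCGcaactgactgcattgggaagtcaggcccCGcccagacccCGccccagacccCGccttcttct
The GC content of these windows was 29.6%, 54.4%, 53.2% and 62.0%, and they held 2, 5, 3 and 12 CG steps, against medians of 52.4% and 6 over 32851 promoter windows and of 58.0% and 8 over 123 windows of channel genes. Scn2a and Cacng5 each have another RefSeq window that is not shown.

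Scn2a read 4.38, 6.51 and 4.25 in the adrenal arrays, 8.88, 9.44 and 8.63 in mutALK, 6.99, 6.08, 6.09 and 6.28 in MYCN and 7.87, 8.43 and 8.57 in double tumours. Every mutALK and double value was above every MYCN and adrenal value, while MYCN values overlapped adrenal 2. The gene was higher than in adrenal gland by 3.94 (SE 0.51, limma adjusted p = 9.85e-05) in mutALK and by 3.24 (SE 0.51, adjusted p = 0.000262) in double tumours. In MYCN tumours the difference was 1.31 (SE 0.48, adjusted p = 0.0393), and that call was lost on leaving out any of 8 arrays (adjusted p of 0.0502 to 0.171), adrenal 1 and 3 among them, while the difference was 2.04 without adrenal 2. Scn3a had the same layout, at 6.55, 8.12 and 5.38 in adrenal gland, 10.34 to 10.81 in mutALK, 7.63 to 8.84 in MYCN and 10.00 to 10.29 in double tumours. Its differences from adrenal gland were 3.91, 1.53 and 3.48, all called, and the MYCN call was lost without MYCN 1, adrenal 1 or adrenal 3 (adjusted p of 0.0618 to 0.1; 0.88 without adrenal 3).

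Scn9a read 4.79, 9.25 and 4.18 in adrenal gland, 10.48, 11.09 and 10.40 in mutALK, 8.83, 8.25, 8.67 and 7.41 in MYCN and 10.51, 10.73 and 10.38 in double tumours. Adrenal 2 lay among or above the MYCN tumours, and the other adrenal arrays lay far below all tumours. The gene was higher in mutALK by 4.58 (SE 1.0, adjusted p = 0.00309) and in double tumours by 4.47 (SE 1.0, adjusted p = 0.00293), and the MYCN difference of 2.22 was not called. Scn8a was low in all adrenal arrays, at 4.97, 5.47 and 4.11, with adrenal 2 close to the others. It read 7.61, 7.37 and 7.58 in mutALK, 8.63, 8.24, 8.21 and 8.35 in MYCN and 8.01, 9.13 and 8.97 in double tumours, and none of the tumour arrays overlapped the adrenal ones. The differences were 2.68 (SE 0.34), 3.51 (SE 0.31) and 3.86 (SE 0.34), with limma adjusted p of at most 7.73e-05, and among sodium channel genes Scn8a had the largest gain in MYCN tumours.

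The beta subunits, which set gating and carry the channel to the membrane, did not move together. Scn3b read 6.43, 9.89 and 5.81 in adrenal gland, 11.33, 11.56 and 10.90 in mutALK, 9.31, 7.81, 8.25 and 7.82 in MYCN and 11.35, 11.02 and 11.31 in double tumours. Both groups with mutated ALK lay above all other arrays, with differences from adrenal gland of 3.89 and 3.85, and the MYCN difference was 0.92 (not called). Scn2b read 7.36, 9.44 and 6.93 in adrenal gland and 6.41, 6.52 and 3.43 in mutALK tumours, where it was lower by 2.45 (adjusted p = 0.0242). That call was lost without mutALK 3 (-1.44, adjusted p = 0.0758) and without adrenal 2 (-1.69, adjusted p = 0.0913). The difference was -0.62 without the liver arrays, where mutALK 2 was the only mutALK array. Scn1a was higher in mutALK tumours by 1.67 (SE 0.48, adjusted p = 0.0142). Its mutALK values were 6.26, 8.20 and 6.63, the difference was 1.08 without mutALK 2, and the call was lost without adrenal 1 (adjusted p = 0.0611). Scn4b and the sensory neuron channels Scn10a and Scn11a were called in no comparison and had group means of 4.73 to 5.11, 3.43 to 3.57 and 4.67 to 4.95.

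Scn7a, an atypical sodium channel that senses sodium concentration and is known from glia, was the sodium channel gene that was lower in MYCN tumours. It read 8.56, 9.66 and 7.45 in adrenal gland, 9.99, 9.13 and 7.39 in mutALK, 4.45, 4.65, 4.09 and 6.22 in MYCN and 6.96, 7.81 and 6.99 in double tumours. The MYCN arrays lay below all others, by 3.70 (SE 0.69, adjusted p = 0.00076) from adrenal gland, and the mutALK and double differences of 0.28 and -1.30 were not called. The Schwann cell marker means were 7.22 to 8.90 in adrenal gland, 7.08 to 8.07 in mutALK, 6.77 to 7.18 in MYCN and 7.20 to 7.44 in double tumours, and their part in this result was not tested.

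**Figure D2:**
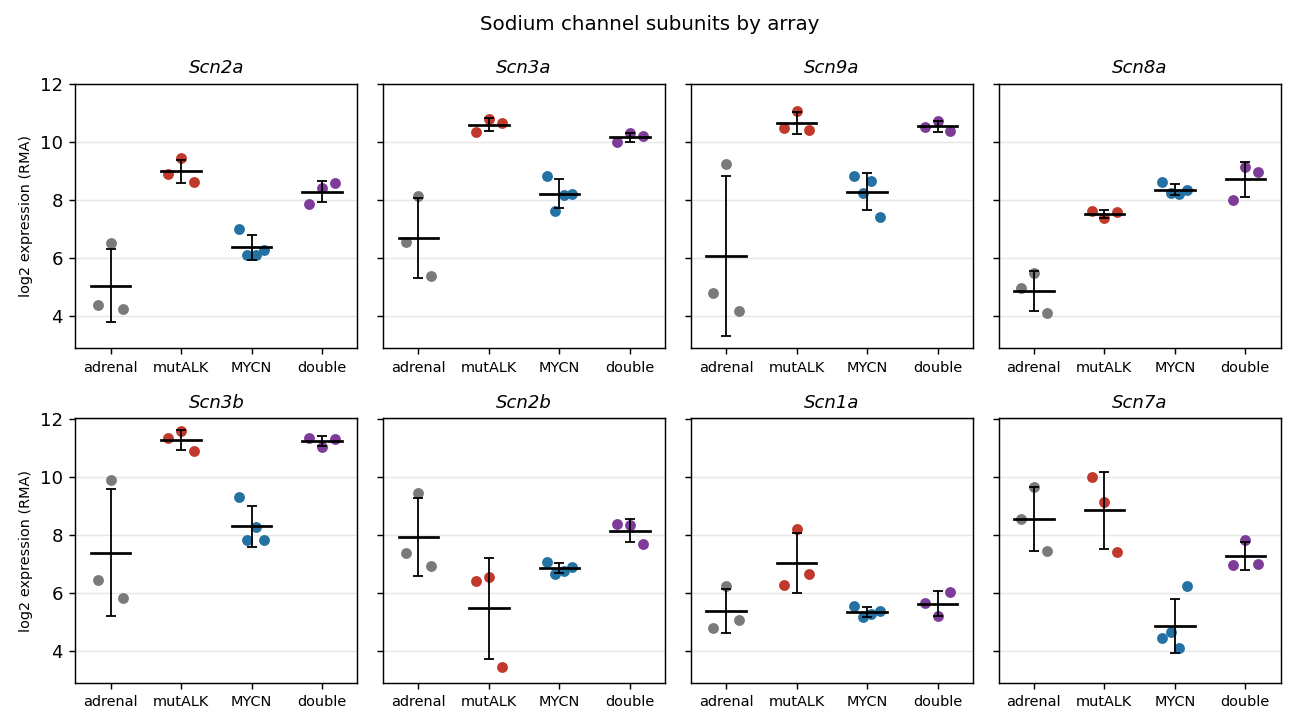
Log2 expression (y axis) of 8 sodium channel subunit genes in adrenal gland, mutALK, MYCN and double tumours (x axis). Points are arrays, and lines and bars are the group mean and SD. Scn2a, Scn3a, Scn9a and Scn3b stand highest in mutALK and double tumours, Scn8a is high in all tumours, and Scn7a is lowest in MYCN tumours, at 4.09 to 6.22. Adrenal 2 is the highest adrenal point in each panel, above the next one by 0.50 for Scn8a and by 1.10 (Scn7a) to 4.46 (Scn9a) for the others.

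Calcium channel genes showed gains of neuronal subunits and the loss of a channel of the adrenal cortex. Of 15 auxiliary genes 8, 7 and 8 were higher in mutALK, MYCN and double tumours (53.3%, 46.7% and 53.3%). In each, 1 was lower (6.67%, against 21%, 24.8% and 24.2% of all genes), and the medians were 1.07, 0.47 and 0.89. Of 9 pore genes 3, 4 and 4 were higher (33.3%, 44.4% and 44.4%) and 2, 1 and 1 lower, with medians of -0.15, 0.02 and -0.02. Of 12 measured genes on the list of neuronal calcium channel subunits, 7 were higher in mutALK, 8 in MYCN and 8 in double tumours, and 0 were lower in any of them. Those list shares were 58.3%, 66.7% and 66.7%, against 21.3%, 25.3% and 24.3% of all genes called higher. Like the other gene lists here, this list was chosen with earlier results of these data known. It leaves out Cacnb2 and Cacna1h, which were called lower in every kind of tumour, so its shares depend on the choice of genes. The medians of the list were 1.09, 1.04 and 1.41. Cacna1b, the pore of the N-type channel that triggers transmitter release, read 6.67, 8.75 and 5.72 in adrenal gland, 10.78, 10.90 and 10.53 in mutALK, 9.14, 8.34, 8.63 and 8.32 in MYCN and 9.49, 10.01 and 9.85 in double tumours. The mutALK values were the highest and the double values came next, without overlap, while adrenal 2 lay among the MYCN values. It was higher than in adrenal gland by 3.69 (SE 0.57, adjusted p = 0.000329) in mutALK, 2.74 in double and 1.56 in MYCN tumours, where the call was lost without MYCN 1, MYCN 3, adrenal 1 or adrenal 3 (adjusted p of 0.0562 to 0.142) and the difference was 2.42 without adrenal 2.

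Cacna1a, the P/Q-type pore of presynaptic terminals, was higher in MYCN by 1.35 (SE 0.24) and in double tumours by 1.44 (SE 0.26), and the mutALK difference was -0.64 (adjusted p = 0.0659). Cacna1d, an L-type pore that opens near the resting potential and paces chromaffin cells, was higher in all tumours, by 1.11, 2.43 and 2.68 in mutALK, MYCN and double tumours. Its adrenal values of 6.51, 5.68 and 6.03 lay below the mutALK values of 7.10, 7.24 and 7.20, which lay below all MYCN and double values of 8.32 to 9.21. Cacna1e, the R-type pore, was higher by 0.96, 1.08 and 1.12. The mutALK call of Cacna1e was lost without mutALK 2, adrenal 1 or adrenal 3 (adjusted p of 0.0877 to 0.0992).

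Cacna1h, a T-type pore through which cells of the adrenal zona glomerulosa take up calcium, was lower in every kind of tumour. Its adrenal values were 8.97, 8.59 and 9.58, against 6.15, 4.95 and 6.25 in mutALK, 5.80, 5.26, 5.47 and 6.37 in MYCN and 7.08, 6.63 and 6.43 in double tumours. No tumour array reached the adrenal range. The differences were -3.27 (SE 0.39, adjusted p = 5.32e-05), -3.32 (SE 0.36, adjusted p = 1.38e-05) and -2.34 (SE 0.39, adjusted p = 0.000376). Cacna1c, the L-type pore of heart and vessels, was lower in mutALK tumours by 1.01, and the differences of -0.30 and -0.50 in MYCN and double tumours were not called. Cacna1g, Cacna1f and Cacna1s were called in no comparison.

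Auxiliary calcium channel subunits gave the 2 largest gains of all channel genes in mutALK tumours, those of Cacng5 and Cacng4. Cacng4 read 5.54, 6.40 and 5.58 in adrenal gland and 10.75, 10.39 and 10.33 in mutALK, 10.22, 9.74, 9.78 and 9.53 in MYCN and 10.38, 10.51 and 10.59 in double tumours. All 10 tumour arrays lay more than 3 units above all adrenal arrays. The differences were 4.65 (SE 0.24, 25.1-fold, adjusted p = 3.47e-07), 3.98 (SE 0.22, 15.8-fold, adjusted p = 1.46e-07) and 4.65 (SE 0.24, adjusted p = 1.81e-07).

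Cacng5, the next gene along chromosome 11 in the RefSeq order and a close relative, separated the tumours by their driver. It read 4.74, 7.28 and 4.10 in adrenal gland, 11.01, 10.40 and 9.90 in mutALK, 4.84, 4.52, 4.21 and 5.55 in MYCN and 9.92, 9.73 and 9.86 in double tumours. The MYCN tumours overlapped the adrenal arrays, and the mutALK and double tumours lay well above both. It was higher than in adrenal gland by 5.07 (SE 0.66, 33.5-fold, adjusted p = 9.68e-05) in mutALK and 4.46 (SE 0.66, adjusted p = 0.000155) in double tumours, and the MYCN difference was -0.60 (not called). With the mean of its 2 probe sets the differences were smaller, at 3.09 and 2.30, and still called. Cacng1, the muscle gamma subunit beside Cacng4 on the other side, had group means of 3.70 to 3.83 and was called in no comparison.

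Of the remaining gamma subunits, Cacng8 was higher in all tumours (1.80, 1.67 and 2.44), and Cacng2, Cacng3 and Cacng7 were called higher in all of them with differences of 0.47 to 1.26. The calls of Cacng2 in mutALK and MYCN tumours were lost without any of 3 and 6 arrays, and that of Cacng7 in MYCN tumours without any of 9, with adjusted p of 0.05 to 0.141. The mutALK difference of Cacng2 was 0.60 without mutALK 1. With the mean of all probe sets both Cacng2 calls (adjusted p of 0.0657 and 0.076) and the MYCN call of Cacng7 (adjusted p = 0.0789) were lost. The MYCN call of Cacng7 was also lost without the liver arrays (adjusted p = 0.124). In that setting the mutALK differences, from mutALK 2 alone, were 0.69 for Cacng2 and 0.96 for Cacng7. Cacna2d2, an alpha-2-delta subunit that carries pores to the membrane, was higher in MYCN tumours by 2.48 (SE 0.55, adjusted p = 0.00254), and by 0.86 with the mean of its probe sets. Cacna2d1, the gabapentin-binding subunit, was higher in MYCN tumours by 1.0 (adjusted p = 0.00352). The 5 probe sets of Cacna2d1 did not run together in that comparison: 4 were called higher, by 0.77 to 1.74, and 1 was called lower, by -1.40.

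The beta subunits of calcium channels, which sit on the inner face of the pore, moved apart. Cacnb2 read 8.63, 7.0 and 8.61 in adrenal gland, 4.26, 4.81 and 5.25 in mutALK, 6.62, 6.69, 6.55 and 6.15 in MYCN and 7.36, 7.06 and 6.64 in double tumours. The mutALK arrays were the lowest and the adrenal arrays the highest, apart from adrenal 2, which lay within the double tumours. It was lower by 3.31 (SE 0.40, adjusted p = 6.31e-05) in mutALK, by 1.58 in MYCN and by 1.06 in double tumours, and the last call was lost without any of 9 arrays (adjusted p of 0.0549 to 0.173) and was -1.60 without adrenal 2. Cacnb4, the beta subunit of brain, was higher in mutALK by 1.10 and in double tumours by 1.45, and its MYCN difference was -0.14. The mutALK call of Cacnb4 was lost without mutALK 2 or adrenal 1 (adjusted p of 0.0624 and 0.0655). Cacnb1 was higher in mutALK and double tumours by 1.78 and 1.19. With the mean of its probe sets these were 0.47 and 0.11, and the double call was lost (adjusted p = 0.616). It was also lost without adrenal 1, adrenal 3, double 1 or double 3 (adjusted p of 0.0628 to 0.127), and the difference was 1.84 without adrenal 2.

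Kcnk3, Kcnn2, Kcnt2, Kcnk5 and Kcnq1 were lower in all 3 kinds of tumour than in adrenal gland, and Kcnk3 had the largest loss of any channel gene in mutALK and double tumours. Kcnk3, a tandem-pore background channel that holds the resting potential of glomerulosa cells, read 11.56, 11.31 and 12.11 in adrenal gland, 6.16, 6.70 and 6.39 in mutALK, 8.04, 8.46, 7.93 and 8.22 in MYCN and 7.56, 7.27 and 7.82 in double tumours. The 4 groups did not overlap, with mutALK lowest and then double and MYCN tumours. It was lower by 5.24 (SE 0.23, 37.8-fold, adjusted p = 1.81e-07) in mutALK, 3.5 (SE 0.21, adjusted p = 2.49e-07) in MYCN and 4.11 (SE 0.23, adjusted p = 3.06e-07) in double tumours.

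Kcnn2, a small-conductance calcium-activated channel that follows bursts of calcium entry in chromaffin cells, read 9.52, 8.77 and 9.92 in adrenal gland and 5.82 to 7.50 over all tumours. It was lower by 2.49, 3.47 and 2.72 in mutALK, MYCN and double tumours (SE 0.29 to 0.31, adjusted p of at most 7.24e-05). Kcnt2, a sodium-activated channel, read 5.24, 5.31 and 4.85 in adrenal gland and 2.56 to 3.35 in the tumours, within the range of the Y-linked genes in arrays with high Xist (2.73 to 3.53) or below it. It was called lower in all 3, and no size is given because the tumour values are not above that range. Kcnk5, an acid-sensitive background channel, was lower by 2.23, 1.86 and 2.22, and Kcnq1, a delayed rectifier of epithelia and heart, by 1.19, 0.99 and 1.35. No tumour array overlapped the adrenal arrays for Kcnn2, Kcnt2, Kcnk5 or Kcnq1.

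On the list of adrenal cortex channels 9 of 10 genes were measured. In mutALK tumours 5 were lower (55.6%, against 21% of all genes) and 1 higher, and in MYCN and double tumours 4 were lower (44.4%, against 24.8% and 24.2%) and 2 higher. Fat cell marker means were 10.27 to 12.17 in adrenal gland and 4.49 to 8.86 in the tumours, and like the cortex markers given earlier they did not overlap, and the part of either tissue in these differences was not tested. Kcnj5, the inward rectifier of glomerulosa cells, was lower in MYCN and double tumours by 0.47 and 0.46, and its mutALK difference was -0.35 (not called). The double call of Kcnj5 was lost without adrenal 3 (adjusted p = 0.0551) and with the mean of its probe sets (adjusted p = 0.0947). Kcnk2, a stretch-sensitive background channel, had means of 8.39 in adrenal gland and 7.39 to 8.37 in the tumours and was called in no comparison, as was Kcne1. The genes on this list that were higher were Cacna1d in all tumours and Kcnk1, a weakly rectifying tandem-pore channel, in MYCN (by 1.89) and double tumours (by 1.30).

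**Figure D3:**
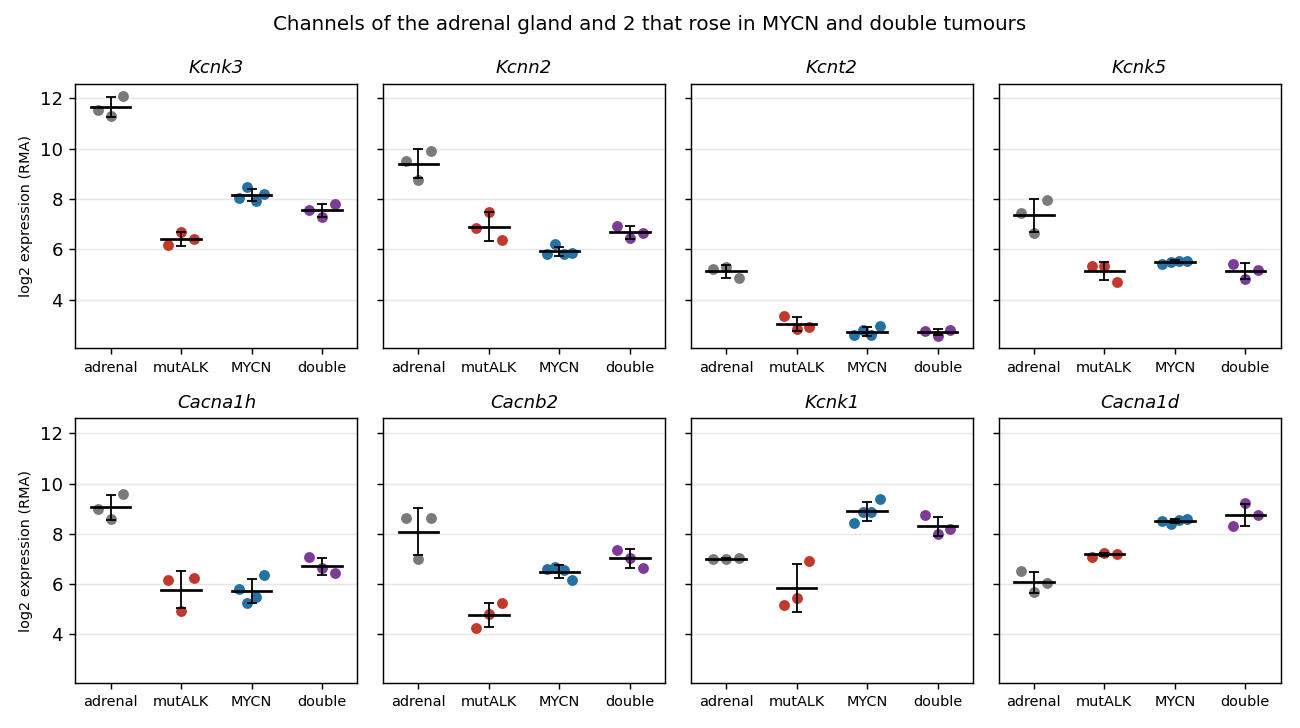
Log2 expression (y axis) of 8 channel genes in adrenal gland, mutALK, MYCN and double tumours (x axis), with points for arrays and lines and bars for the group mean and SD. Kcnk3 drops from 11.31 to 12.11 in adrenal gland to 8.46 or less in every tumour, and Kcnn2, Kcnt2, Kcnk5 and Cacna1h lie lower in all tumours. Cacnb2 and Kcnk1 are lowest in mutALK tumours, and Cacna1d rises from adrenal gland to mutALK and on to MYCN and double tumours.

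Voltage-gated potassium channel alpha subunits were called higher in 9 and lower in 5 of 31 in mutALK, 5 and 7 in MYCN and 4 and 5 in double tumours. These shares were 29% and 16.1%, 16.1% and 22.6%, and 12.9% and 16.1%. All genes gave 21.3% and 21%, 25.3% and 24.8%, and 24.3% and 24.2%. Kcna4, an A-type subunit of axons and the heart, was higher by 1.58, 0.72 and 1.01, and Kcnc1, a fast delayed rectifier, by 0.78, 1.18 and 0.98. The MYCN call of Kcna4 was lost without MYCN 3, MYCN 4 or adrenal 2 (adjusted p of 0.0605 to 0.092). Without the liver arrays that call was lost (adjusted p = 0.0565), and the mutALK difference of Kcnc1, from mutALK 2 alone, was 0.81. Kcnh8, of the EAG-like family, was higher by 1.36, 1.20 and 1.56, but its mutALK call was lost without mutALK 3, adrenal 1 or adrenal 3 (adjusted p of 0.0635 to 0.0757) and its MYCN call without MYCN 1, MYCN 3, adrenal 1 or adrenal 3 (adjusted p of 0.0522 to 0.103). Without adrenal 3 these 2 differences of Kcnh8 were 0.90 and 0.75. Kcns3, a silent subunit that modifies other channels, was lower by 0.86, 0.83 and 0.80, with adrenal values of 5.68 to 5.92 and tumour values of 4.81 to 5.13.

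Kcna1, an axonal delayed rectifier, read 7.0, 9.19 and 6.83 in adrenal gland, 5.42 to 5.86 in MYCN and 5.98 to 6.16 in double tumours. It was lower by 2.04 in MYCN and by 1.60 in double tumours. Without adrenal 2 the MYCN difference was -1.29 and the double difference -0.84 (adjusted p = 0.14), and the double call was lost without any of 9 arrays. Kcna5, a delayed rectifier of heart and vessel muscle, read 6.41, 7.64 and 5.71 in adrenal gland and 3.90, 4.73 and 4.34 in mutALK tumours, and was lower there by 2.27 (SE 0.42, adjusted p = 0.00102). Kcnip4, which binds A-type channels, read 5.0, 8.78 and 4.62 in adrenal gland, 2.81 to 3.34 in MYCN and 3.12 to 3.43 in double tumours. It was called lower in both, with and without adrenal 2, and no size is given because these tumour values lie within the range of the Y-linked genes (2.73 to 3.53).

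Kcnip1, another calcium-binding partner of A-type channels, was higher in every kind of tumour. It read 6.44, 3.82 and 5.53 in adrenal gland, 9.0, 9.06 and 7.54 in mutALK, 9.11, 9.18, 9.70 and 9.82 in MYCN and 10.22, 10.21 and 10.34 in double tumours. Each tumour group lay above the adrenal arrays, and the 3 double values lay above all others. The differences were 3.27 (SE 0.57, adjusted p = 0.000707), 4.19 (SE 0.53, adjusted p = 4.41e-05) and 5.0 (SE 0.57, 31.9-fold, adjusted p = 2.36e-05). With the mean of its probe sets they were 1.43, 2.22 and 2.79, all still called. Kcnu1, a pH-sensitive relative of the large-conductance channel known from sperm, read 4.94, 5.06 and 4.57 in adrenal gland and 6.19 to 6.81 in the tumours, and was higher by 1.72, 1.65 and 1.52.

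The channels of the M-current, the slow potassium current that muscarinic receptors close in sympathetic neurons, were measured through Kcnq3 and Kcnq5. Kcnq3 read 7.91, 10.38 and 7.36 in adrenal gland, 10.34, 10.93 and 9.48 in mutALK, 6.22, 5.99, 5.52 and 7.12 in MYCN and 9.14, 8.98 and 10.02 in double tumours. The MYCN arrays lay below all others, by 2.34 from adrenal gland (SE 0.66, adjusted p = 0.0104, with -1.42 without adrenal 2 and adjusted p = 0.0663 without the liver arrays), and the mutALK and double differences of 1.70 and 0.83 were not called. Kcnq5 read 3.62, 7.80 and 4.0 in adrenal gland and 6.43 to 7.76 over the tumours. It was called higher in mutALK and MYCN tumours by 2.42 and 2.15, and each call was lost on leaving out any of 5 arrays (adjusted p of 0.0645 to 0.175), while the differences were 3.75 and 3.48 without adrenal 2. The erg-type Kcnh2 was lower in mutALK tumours by 0.47 (adjusted p = 0.0417), a call lost without any of 7 arrays (adjusted p of 0.0532 to 0.144), and Kcnh7 was called in no comparison.

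Between tumours, the channel genes that differed were more often higher in mutALK than in MYCN tumours. In mutALK against MYCN tumours 26 of 115 were higher (22.6%) and 13 lower (11.3%), where 13.6% of all genes were called higher and 17.2% lower. Sodium channel genes gave 5 of 11 higher (45.5%) and 0 lower, calcium 5 and 5 of 24 (20.8% each), and potassium 16 and 8 of 80 (20% and 10%). Double against MYCN tumours gave 13 higher (11.3%) and 4 lower (3.48%), against 6.16% and 6.66% of all genes. Double against mutALK tumours gave 13 higher (11.3%) and 5 lower (4.35%), against 8.39% and 6.03%. These 3 comparisons share arrays in pairs.

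The counts that involve double tumours were thin. Double against MYCN gave 7 higher without MYCN 2, MYCN 3 or double 2, 8 without MYCN 4, 6 without double 3 and 20 without adrenal 2, and 1 lower without double 2. Double against mutALK gave 8 higher without mutALK 1 or double 2, and the lower count was 2 without mutALK 2, 1 without double 2 and 10 without adrenal 2. Of the 17 and 18 calls in these comparisons, 7 and 7 were kept without each array in turn, against 27 of 39 in mutALK against MYCN.

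**Figure D4:**
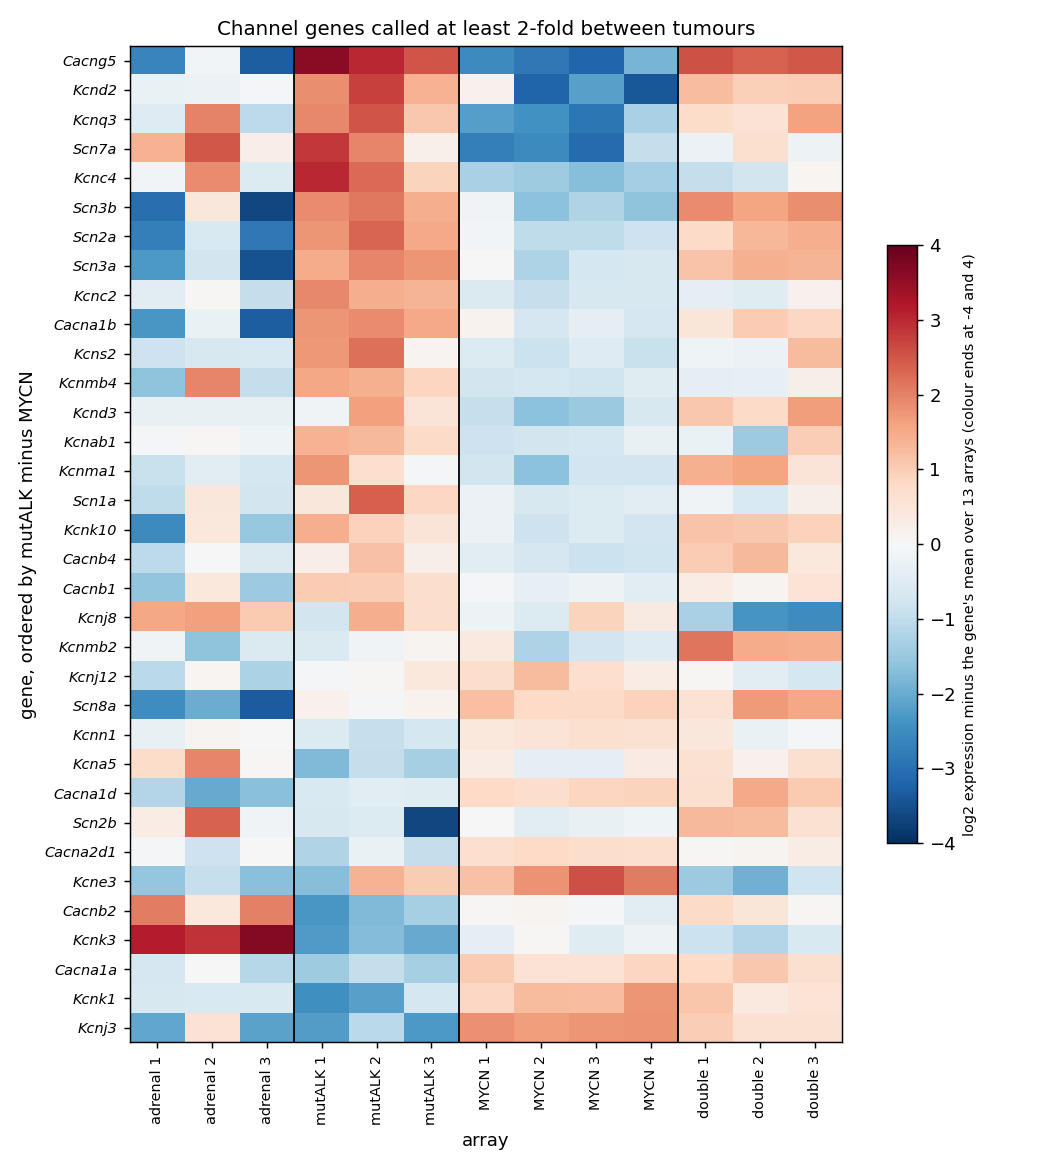
Heat map of the 34 channel genes called at least 2-fold between any pair of tumour groups with arrays that did not overlap (rows, ordered by mutALK minus MYCN) over the 13 arrays (columns). Colour is the log2 level minus the mean of the gene over the 13 arrays. Genes at the top, from Cacng5 to Kcnc4, are red in mutALK and, apart from Kcnd2 in MYCN 1, blue in MYCN tumours, genes at the bottom, from Kcnj3 to Cacnb2, are blue in mutALK tumours, and adrenal 2 is redder than the other adrenal arrays for many neuronal genes.

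A set of genes was higher both in mutALK and in double tumours than in MYCN tumours. Cacng5, with the values given earlier, was higher by 5.66 (SE 0.62, 50.6-fold, adjusted p = 8.2e-05) and 5.06 (SE 0.62, adjusted p = 0.000994), and its MYCN and other tumour values were over 4 units apart. Kcnd2, an A-type subunit of dendrites, read 8.88, 9.76 and 8.43 in mutALK, 7.20, 3.84, 4.86 and 3.65 in MYCN, 8.27, 8.0 and 8.01 in double tumours and 6.77, 6.81 and 6.98 in adrenal gland. MYCN 1 lay above the adrenal range and the other MYCN arrays below it, and the MYCN arrays did not overlap the other tumours. Against adrenal gland it was called higher in mutALK by 2.17 and lower in MYCN by 1.97, calls lost without any of 5 and 6 arrays (adjusted p of 0.059 to 0.112). Against MYCN tumours Kcnd2 was higher by 4.14 (SE 0.68, adjusted p = 0.000957) in mutALK and by 3.21 (SE 0.68, adjusted p = 0.0123) in double tumours. Without the liver arrays the calls of Kcnd2 in MYCN tumours against adrenal gland (adjusted p = 0.193) and in double against MYCN tumours (2.77, adjusted p = 0.101) were lost. The mutALK difference of Kcnd2 from adrenal gland was then 2.89, from mutALK 2 alone. Kcnq3 was higher by 4.04 (SE 0.66, adjusted p = 0.000858) and 3.17 (SE 0.66, adjusted p = 0.0106), the latter with adjusted p = 0.0515 without double 3.

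Kcnd3, another A-type subunit, was higher than in MYCN tumours by 1.85 in mutALK and by 2.34 in double tumours (SE 0.38, adjusted p = 0.00359). With the mean of its probe sets these differences of Kcnd3 were much smaller, at 0.45 and 0.57, and still called (limma adjusted p of 0.0385 and 0.0314). Kcnma1, the pore of the large-conductance calcium-activated channel that ends action potentials in chromaffin cells, read 9.52, 8.42 and 7.73 in mutALK, 7.04, 6.12, 7.01 and 7.01 in MYCN, 9.20, 9.35 and 8.28 in double tumours and 6.88, 7.32 and 7.07 in adrenal gland. The MYCN and adrenal arrays lay together below the others. The differences from MYCN were 1.77 and 2.15 (adjusted p = 0.00672 for double tumours), and from adrenal gland 1.47 and 1.85. The mutALK call against adrenal gland was lost without mutALK 1 or adrenal 1 (adjusted p of 0.0572 and 0.0524). With the mean of all probe sets both mutALK calls of Kcnma1 were lost, at 0.50 (adjusted p = 0.447) against adrenal gland and 1.18 (adjusted p = 0.0624) against MYCN tumours. On the list of calcium-activated potassium channels of chromaffin cells, which holds Kcnma1 and its beta subunits with the small-conductance family, 8 of 9 genes were measured. Against adrenal gland 1, 1 and 2 of them were higher and 2, 1 and 1 lower in mutALK, MYCN and double tumours, and against MYCN tumours 3 and 2 were higher and 1 and 0 lower in mutALK and double tumours. The higher shares against adrenal gland were 12.5%, 12.5% and 25%, where all genes gave 21.3%, 25.3% and 24.3%. Against MYCN tumours they were 37.5% and 25%, where all genes gave 13.6% and 6.16%. Kcnmb4, a neuronal beta subunit, read 5.90, 9.46 and 6.57 in adrenal gland, 9.05, 8.93 and 8.39 in mutALK, 6.73 to 7.02 in MYCN and 7.11 to 7.76 in double tumours, and was higher in mutALK than in MYCN by 1.95, a call lost without any mutALK or MYCN array (adjusted p of 0.0533 to 0.107).

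Some sodium genes were also higher in both groups with mutated ALK than in MYCN tumours. In mutALK against MYCN tumours Scn7a was higher by 3.98 (SE 0.69, adjusted p = 0.00125), Scn3b by 2.97, Scn2a by 2.62 and Scn3a by 2.39, and in double against MYCN tumours the same 4 genes were called higher by 2.40, 2.93, 1.93 and 1.95. In the latter comparison Scn7a lost its call without any of 8 arrays, Scn3b and Scn3a without any of 6 and Scn2a without any of 5, with adjusted p between 0.0527 and 0.141. The arrays concerned were MYCN 2 and 3 and double 2 and 3 for all 4 genes, MYCN 4 for Scn2a, Scn3a and Scn3b, double 1 for Scn3a, Scn3b and Scn7a, and MYCN 1, mutALK 2 and adrenal 1 for Scn7a. Without the liver arrays the call of Scn7a was lost as well (adjusted p = 0.0624). Scn1a was higher in mutALK than in MYCN by 1.70, with 0.30 in double against MYCN (not called). Scn9a differed by 2.37 and 2.25 with arrays that did not overlap, and Scn8a by -0.83 and 0.35, and none of these differences was called. The pan-neuronal marker mean was 11.81 to 12.01 in mutALK, 10.57 to 11.13 in MYCN and 11.69 to 11.92 in double tumours, and its part in these differences was not tested.

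**Figure D5:**
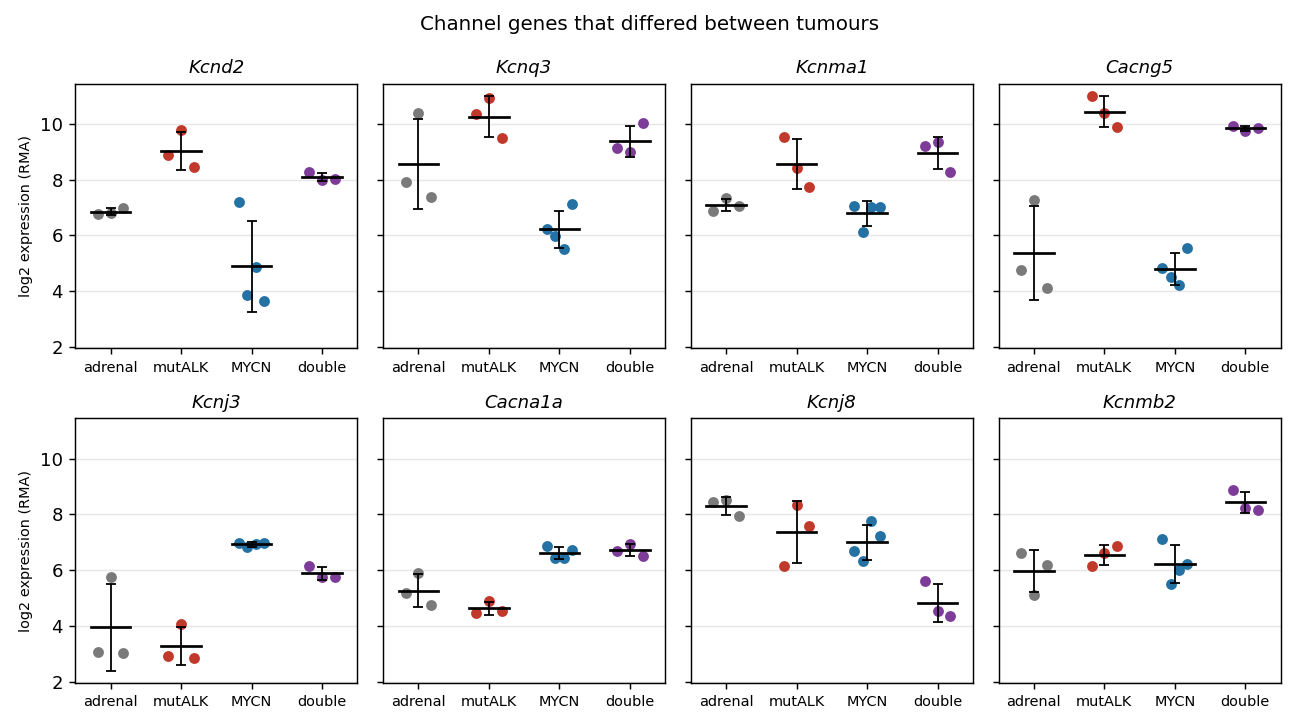
Log2 expression (y axis) of 8 channel genes in adrenal gland, mutALK, MYCN and double tumours (x axis), with points for arrays and lines and bars for the group mean and SD. Kcnd2, Kcnq3, Kcnma1 and Cacng5 are lower in MYCN than in mutALK and double tumours, Kcnj3 and Cacna1a are lower in mutALK than in MYCN and double tumours, Kcnj8 is lowest in double tumours, at 4.36 to 5.59, and Kcnmb2 is highest there, at 8.17 to 8.87.

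Another set was lower in mutALK than in both kinds of tumour that carry MYCN. Kcnk1 read 5.16, 5.46 and 6.91 in mutALK, 8.44, 8.88, 8.87 and 9.39 in MYCN and 8.73, 8.0 and 8.18 in double tumours, and 6.99 to 7.02 in adrenal gland. The adrenal arrays lay between mutALK and the other tumours. Against adrenal gland Kcnk1 was lower in mutALK by 1.16 and higher in MYCN and double tumours, with the mutALK call lost without any of 5 arrays (adjusted p of 0.0626 to 0.13) or with the mean of its probe sets (adjusted p = 0.0749) and the double call without double 1 (adjusted p = 0.0635). It was lower in mutALK than in MYCN tumours by 3.05 (SE 0.37, 8.28-fold, adjusted p = 0.000142), and double tumours were above mutALK by 2.46 (SE 0.39, adjusted p = 0.00382). Kcnj3, a subunit of the inward rectifier opened by G proteins, read 2.91, 4.06 and 2.85 in mutALK, 6.99, 6.81, 6.93 and 6.96 in MYCN, 6.15, 5.75 and 5.75 in double tumours and 3.07, 5.74 and 3.02 in adrenal gland. The values near 3 lie in the range of the Y-linked genes. Kcnj3 was lower in mutALK than in MYCN by 3.65 (SE 0.56, adjusted p = 0.000591) and higher in double than in mutALK tumours by 2.61 (adjusted p = 0.0165), a call lost without mutALK 1 or double 2 (adjusted p of 0.056 and 0.0539).

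Cacna1a read 4.45, 4.90 and 4.53 in mutALK, 6.44 to 6.87 in MYCN and 6.51 to 6.94 in double tumours, and the MYCN and double values overlapped. It was lower in mutALK than in MYCN by 1.99 (SE 0.24, adjusted p = 0.000141), with double tumours above mutALK by 2.08 (SE 0.26, adjusted p = 0.0014). Cacnb2 differed in the same way by -1.73 and 2.25, Cacna1d by -1.33 and 1.57, Kcnk3 by -1.74 and 1.13, and Kcnn1, a small-conductance calcium-activated channel, by -1.27 and 0.79. Kcna5 differed by -1.32 and 1.82, with the first call lost without mutALK 1, mutALK 3, MYCN 1 or MYCN 4 (adjusted p of 0.0542 to 0.0949) and the latter without mutALK 1 (adjusted p = 0.0589). Without the liver arrays, with mutALK 2 the only mutALK array, these differences of Kcna5 were -1.03 and 1.35. The call of Kcnn1 for double against mutALK was lost without mutALK 2 (adjusted p = 0.0721), and its difference was 0.78 without the liver arrays. The call of Kcnk3 in that comparison was lost with the mean of its probe sets (0.44, adjusted p = 0.149), and its difference was 0.84 without the liver arrays. Cacna2d1 was lower in mutALK than in MYCN tumours by 1.52 (adjusted p = 0.000614), with 3 of its other 4 probe sets called the same way.

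Some genes were high in mutALK tumours above both other tumours. Kcnc2, a fast delayed rectifier, read 6.43, 5.97 and 5.86 in mutALK and 3.56 to 4.68 in all other arrays. It was higher than in MYCN by 2.28, higher than in adrenal gland by 2.02 (SE 0.25), and lower in double than in mutALK tumours by 1.80 (SE 0.25, adjusted p = 0.00245). Kcnc4, of the same family, read 10.52, 9.77 and 8.41 in mutALK, 5.79 to 6.22 in MYCN, 6.56, 6.76 and 7.58 in double tumours and 7.38, 9.41 and 6.95 in adrenal gland. It was higher in mutALK than in MYCN by 3.51 (SE 0.58, adjusted p = 0.000959) and lower in double than in mutALK by 2.60 (adjusted p = 0.0196), a call lost without mutALK 1, mutALK 2, double 1 or double 2 (adjusted p of 0.0591 to 0.0722). Its MYCN value was lower than in adrenal gland by 1.86, and that call was lost without adrenal 2 (adjusted p = 0.0784).

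Kcnmb2, the beta subunit that inactivates the large-conductance calcium-activated channel, read 8.87, 8.24 and 8.17 in double tumours, 6.16, 6.60 and 6.86 in mutALK, 7.12, 5.49, 5.99 and 6.22 in MYCN and 5.12 to 6.60 in adrenal gland. All double values lay above all others. It was higher than in MYCN tumours by 2.22 (SE 0.41, adjusted p = 0.00624), than in mutALK by 1.89 (adjusted p = 0.017) and than in adrenal gland by 2.46. The call against mutALK was lost without mutALK 1, mutALK 2, double 1 or double 2 (adjusted p of 0.0503 to 0.0599). This difference was 1.60 without the liver arrays, with mutALK 2 the only mutALK array.

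Scn2b was higher in double than in mutALK tumours by 2.68 (adjusted p = 0.0419), a call lost without any of 9 arrays with a difference of 1.67 without mutALK 3, whose value was 3.43, and of 0.91 (adjusted p = 0.094) with the mean of its probe sets. Its double values of 8.37, 8.35 and 7.68 lay within the adrenal range of 6.93 to 9.44.

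Kcnj8, the pore of the ATP-sensitive potassium channel of pericytes and vessel muscle, read 5.59, 4.51 and 4.36 in double tumours, 6.14, 8.32 and 7.60 in mutALK, 6.67, 6.33, 7.77 and 7.23 in MYCN and 8.44, 8.53 and 7.94 in adrenal gland. Every double value lay below every other value. It was lower than in adrenal gland by 3.48 (SE 0.54, adjusted p = 0.000214), than in MYCN tumours by 2.18 (adjusted p = 0.0171) and than in mutALK tumours by 2.53 (adjusted p = 0.0122). The call against MYCN was lost without double 2 or double 3 (adjusted p of 0.0668 and 0.0746), and that against mutALK without double 2 (adjusted p = 0.0543). Abcc9, the sulfonylurea receptor that pairs with Kcnj8 and no channel member itself, was lower in double tumours than in adrenal gland, MYCN and mutALK tumours by 3.04, 2.11 and 2.26. The mean of 7 smooth muscle and pericyte markers was 6.13 to 6.72 in double tumours against 7.21 to 8.69 in the other tumours and 8.36 to 9.38 in adrenal gland, and that of 8 endothelial markers was 5.13 to 5.75 against 6.13 to 7.45 and 8.83 to 8.96. The part of these cell types in the result was not tested.

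Of the 5 channels on the vessel wall list, 2 were lower in each kind of tumour than in adrenal gland (40%, against 21%, 24.8% and 24.2% of all genes in mutALK, MYCN and double tumours), Kcnk3 with Cacna1c in mutALK and Kcnk3 with Kcnj8 in MYCN and double tumours. The MYCN call of Kcnj8 (-1.30, adjusted p = 0.0488) was lost without any of 9 arrays (adjusted p of 0.0559 to 0.123). Kcnmb1, the beta subunit of vessel muscle, and Kcnj2 were called in no comparison, with means of 4.11 to 4.30 and 2.80 to 2.99.

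Kcne3, a small auxiliary subunit known from epithelia and muscle, was high in MYCN tumours. It read 5.99, 6.62, 7.40 and 6.90 in MYCN, 3.12, 6.20 and 5.83 in mutALK, 3.37, 2.89 and 4.03 in double tumours and 3.28, 3.89 and 3.14 in adrenal gland. The MYCN arrays lay above adrenal and double arrays and overlapped mutALK, whose own arrays were split, and several adrenal and double values lie in the range of the Y-linked genes. It was higher in MYCN tumours than in adrenal gland by 3.30 (SE 0.63, adjusted p = 0.00095) and lower in double than in MYCN tumours by 3.30 (SE 0.63, adjusted p = 0.00759). Kcnj12, an inward rectifier of heart and muscle, was higher in MYCN tumours than in adrenal gland by 1.49 and lower in double than in MYCN tumours by 1.11 (adjusted p = 0.0455), the latter call lost without any of 9 arrays. Skeletal muscle markers averaged 8.18 in MYCN 3, where Kcnj12 read 7.03, and 5.29 to 5.31 in the other MYCN arrays, where it read 6.66 to 7.64. On the muscle list 1 of 8 measured genes was higher in each kind of tumour than in adrenal gland (12.5%, against 21.3%, 25.3% and 24.3% of all genes). The gene was Cacnb1 in mutALK and double and Kcne3 in MYCN tumours. On the immune and red cell list of 5 genes Kcnk13 was higher in mutALK (by 0.29) and Kcnk6 lower in double tumours (by 1.53). These were 20% each, against 21.3% of all genes higher in mutALK and 24.2% lower in double tumours. The call of Kcnk13 was lost without any of 10 arrays (adjusted p of 0.0581 to 0.169) and with the mean of its probe sets. Its difference was 0.34 without the liver arrays, with mutALK 2 the only mutALK array.

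Few inward rectifiers were called. In mutALK tumours 0 of 15 were called against adrenal gland in either direction, where 21.3% of all genes were called higher and 21% lower. In MYCN and double tumours 2 were higher and 2 lower (13.3% each). All genes gave 25.3% higher and 24.8% lower in MYCN and 24.3% and 24.2% in double tumours. Kcnj11, the pore of the ATP-sensitive channel of beta cells, read 8.62, 8.63 and 8.68 in adrenal gland and 8.31 to 8.92 over all tumours, and differed from adrenal gland by -0.24 to 0.10 with no call. Among calcium- and sodium-activated channels 3 of 11 were higher and 3 lower in mutALK, 2 and 2 in MYCN and 3 and 2 in double tumours (18.2% to 27.3%). Among tandem-pore channels the counts were 2 and 3, 1 and 2, and 2 and 3 of 12 (8.33% to 25%). Both are to be read against the shares of all genes given for the inward rectifiers. Kcnk10, an arachidonate-sensitive tandem-pore channel, was higher in mutALK and double tumours than in adrenal gland by 2.19 and 2.27, with adrenal values of 3.95, 6.92 and 4.99.

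Proteins that work with these channels without being members were taken as a further list, of which 34 of 38 genes were measured. Against adrenal gland 15, 14 and 15 were higher (44.1%, 41.2% and 44.1%) and 3, 6 and 4 lower (8.82%, 17.6% and 11.8%) in mutALK, MYCN and double tumours. All genes gave 21.3%, 25.3% and 24.3% higher and 21%, 24.8% and 24.2% lower. Between tumours 7 were higher (20.6%) and 3 lower (8.82%) in mutALK than in MYCN. In double tumours 3 and 3 were called against MYCN (8.82% each), and 1 and 4 against mutALK (2.94% and 11.8%). All genes gave 13.6% and 17.2%, 6.16% and 6.66%, and 8.39% and 6.03%. Higher in every kind of tumour were Ank3 and Nfasc, which anchor sodium channels at the axon initial segment (2.86, 2.42 and 2.79 for Ank3, and 2.34, 3.11 and 2.51 for Nfasc), Cntnap2, which clusters axonal potassium channels (2.38, 2.59 and 4.26), and the sodium leak channel Nalcn (2.04, 1.74 and 1.84). Rest, the repressor of neuronal genes outside neurons, was lower in all tumours by 2.36, 2.62 and 3.44. Dpp10, a partner of A-type channels, read 6.29 to 7.14 in mutALK tumours, 3.40 to 3.55 in adrenal gland and 3.51 to 3.79 in MYCN tumours. It was called higher in mutALK tumours than in both. No size is given because the adrenal and MYCN values lie in or just above the range of the Y-linked genes (2.73 to 3.53). Its relative Dpp6 exceeded its MYCN level in mutALK tumours by 1.92.

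Of the 115 channel genes 71 were called in at least 1 of the 6 comparisons, 68 against adrenal gland and 47 between tumours, and 58 reached 2-fold with a call. The other 44 (38.3%) were called in none, a share near the 34.3% of all genes. The median level was 6.08 over the channel genes and 7.13 over all genes, and Kcnh5, Kcnj2 and Kcnv2 never exceeded 3.53, the highest value of 3 Y-linked genes in the 7 arrays with high Xist. Of the members called with several probe sets, another probe set was called the same way for 25 of 37, 18 of 32 and 21 of 34 in the comparisons with adrenal gland, and the opposite way only for Cacna2d1, in MYCN tumours. With the mean of all probe sets several differences from adrenal gland that were still called were over 1.5 times smaller. Examples are Scn8a (1.33, 1.85 and 1.96), Cacna1h (-2.04, -1.98 and -1.39) and Cacng8 (0.85, 0.88 and 1.17) in mutALK, MYCN and double tumours and Kcnk3 (-3.23) in mutALK tumours.

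Promoter windows of 250 bases before the start were found for 88 of the 115 genes. The MYC-type E-box CACGTG was in 5 of 123 windows of channel genes (4.07%) against 6.02% of 32851 windows of all genes, with both strands searched and the motif its own reverse complement. These windows belong to Kcnab1, Kcne4, Kcnj2 and Kcnn4. The NR5A1-type motif CAAGGTCA was in 1 window, of Kcnf1, against 1.33% of all windows, and TTCAGCACC, a part of the site of Rest, was in 0 of 123 against 0.301%. Windows without a match hold none of these letters in that order, and nothing follows from that for the factors.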

How the data were processed

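RNA of 13 samples, 3 or 4 per group, was measured on Affymetrix mouse arrays of 45101 probe sets. The deposited values are on the log2 scale and were made by the authors with RMA in Partek, per the submitters' processing notes, which give no versions, and RMA corrects background and quantile-normalizes the arrays. Probe sets with exactly 1 symbol (34958) were used, those with several (932) or none (9211) were left out, and 34754 matched the RefSeq table of assembly GRCm38.p6. Each gene was taken from its probe set with the highest mean, which gave 18194 genes. In R 4.3.3, limma 3.58.1 (lmFit and eBayes, 9 residual and 2.28 prior degrees of freedom) fitted the 4 group means of every gene over the 13 arrays. The 6 comparisons were contrasts of it, two-sided, with Benjamini-Hochberg adjustment over all genes, and a gene was called at an adjusted p under 0.05. SE is the moderated standard error of the difference. Genes were named if they were among the 8 largest called rises or falls of a comparison (at least 2-fold, groups not overlapping), among the 3 highest means of a class in a group, or on a role list. Members and lists were chosen with earlier results of these data known. The fit was tested on simulated data. The number of arrays limits the precision. Alternatives covered centring, quantile normalization, the variance model, dim genes, probe sets, sex, shared title numbers, arrays with liver transcripts and each array in turn. Figures were drawn with matplotlib 3.10.9.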

Additional observations from a re-analysis of the deposited data

Results flagged for a closer look

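Among 37 channel genes looked at in the 4 MYCN arrays, 3 had an array far from the others, and chance flags about 1 in 20 such groups. In each case the array was MYCN 2, which also carried liver transcripts, with Kcnc2 at 3.573 (others 3.86 to 3.91), Kcnma1 at 6.119 (others 7.01 to 7.04) and Kcnn2 at 6.197 (others 5.82 to 5.87). The part of the liver transcripts in these values was not tested. Groups of 3 arrays were too small to be looked at in this way.

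For 3 genes the tumour groups were called in opposite directions against the adrenal gland, and the direct difference between mutALK and MYCN tumours was also called in limma. This difference was 4.14 for Kcnd2, which was higher in mutALK and lower in MYCN tumours than in adrenal gland. It was -3.049 for Kcnk1 and -1.272 for Kcnn1, which were lower in mutALK and higher in MYCN tumours. Kcnd2 lost its calls against adrenal gland without any of 5 (mutALK) or 6 (MYCN) arrays, Kcnk1 its mutALK call without any of 5, and Kcnn1 its MYCN call without adrenal 1 (adjusted p = 0.0617).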

How the results depend on the processing

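Of 212 gene calls over the 6 comparisons, 68 were lost on leaving out at least 1 array and 0 changed direction under the alternatives run. Calls lost numbered 2 with renewed quantile normalization, 3 with a variance trend, 17 with array medians centred, 20 with the mean of all probe sets, 33 with sex read from Xist as a covariate, 35 without the 5 arrays with liver transcripts, 41 with arrays of a shared title number averaged and 42 with the compared groups alone. Without 1 array, the count of channel genes called higher ran from 21 to 40 (mutALK minus adrenal), 18 to 31 (MYCN minus adrenal), 27 to 39 (double minus adrenal), 18 to 32 (mutALK minus MYCN), 6 to 20 (double minus MYCN) and 8 to 16 (double minus mutALK), and the count called lower from 14 to 17, 16 to 19, 13 to 17, 10 to 14, 1 to 6 and 1 to 10. With the compared groups alone the higher counts were 21 for mutALK minus adrenal, 25 for double minus MYCN and 8 for double minus mutALK. Leaving out the dimmest 40% of genes kept 51 channel genes, and so fewer calls: 9 lower (mutALK minus adrenal), 17 higher and 11 lower (MYCN minus adrenal), 8 lower (double minus adrenal), 2 lower (double minus MYCN) and 3 lower (double minus mutALK). Averaging arrays of a shared title number gave 7 higher for double minus MYCN and 3 lower for double minus mutALK, and centring gave 3 lower for the latter. Without the liver arrays double minus MYCN had 7 lower. No count is given there for mutALK, because mutALK 2 was the only mutALK array left. Without adrenal 2 and double 1 the lower counts were 7 for double minus MYCN and 8 for double minus mutALK. Apart from the filter, the cause was not tested. No paired analysis was possible because no label or title number links an array of a group to an array of another group. The tumour replicate numbers used here follow the order of the samples. Signals near 3.53, the highest background value, limit differences for the dimmest genes.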
